A study of Mus musculus with 12 samples.

Results

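Polo-like kinases are a small family of serine/threonine kinases that pair a kinase domain with polo boxes, which dock them onto partner proteins. The members described here are the 4 rows of a mouse count table whose symbols are Plk1, Plk2, Plk3 and Plk4, out of 50559 gene symbols. They were measured by RNA sequencing in macrophages grown from the bone marrow of C57BL/6 mice and treated for 1 h with vehicle or with allergen of the house dust mite (HDM), a common trigger of allergic asthma. There were 6 libraries of each treatment, numbered 1 to 6 in both, and the labels name no genetic change in either group. The sources used here do not give the age or sex of the mice, the dose of allergen, or which animal or culture each library came from. Standard errors and p-values therefore measure the spread between these libraries, which may be technical. The members were chosen by symbol with their HDM and vehicle values in these same libraries known, so the HDM and vehicle values of the members are a description and carry no p-value. All 4 members were among the 13530 genes that passed the filter on low counts.

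PLK1 acts in dividing cells, where it promotes entry into mitosis, maturation of the centrosomes, assembly of the spindle and cytokinesis. PLK4 starts the duplication of centrioles, the cores of the centrosomes. PLK2 and PLK3 were found as products of early response genes, transcribed soon after growth factors or stress reach a cell, and both are made in cells that do not divide. Plk5, the remaining gene of the family, encodes a protein without known kinase activity.

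Libraries held 19.69 M to 119.71 M counted reads, with a median of 41.11 M for HDM and 41.71 M for vehicle. Levels are given as CPM, reads per M counted reads after TMM scaling, which corrects for differences in library composition. All 10 macrophage markers examined passed the filter, and their summed level lay between 17322 and 21879 CPM in the 12 libraries. Most of this sum was Lyz2, which averaged 11557 CPM. Summed lymphocyte markers reached at most 0.189 CPM. The libraries numbered 5 and 6, of both treatments, stood apart from the other 8. Their macrophage markers summed to 17322 to 18623 CPM, against 18447 to 21879 in the others. Their granulocyte markers summed to 101 to 114 CPM, against 43.0 to 62.4 in the others, and stem and progenitor markers summed to 3.88 to 4.41 against 1.28 to 2.45 CPM. The granulocyte sum was mostly Mmp8, a collagenase gene, which averaged 65.4 CPM and whose mean log2 CPM in numbers 5 and 6 minus that in numbers 1 to 4 was 1.12. The same difference was 0.50 for S100a8, -0.21 for S100a9 and -0.66 for Ngp, and Elane, Mpo, Camp, Ltf and Ly6g averaged at most 0.191 CPM. Among the stem and progenitor markers it was 2.89 for Kit, 1.42 for Gata2 and -0.36 for Cd34. Over the macrophage markers the difference ran from -0.85 for Adgre1 to 0.52 for Cd14. By treatment the granulocyte sums ran from 43.3 to 114 CPM with HDM and from 43.0 to 104 with vehicle, and the granulocyte marker Retnlg was at 0 throughout. The labels name no batch, and the part of these markers in the results was not tested.

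The promoters of the 4 genes are shown because Plk2 and Plk3 rose with HDM while Plk1 and Plk4 were not called. The sequences are those of RefSeq on build GRCm38.p6, from 250 bases before to 50 bases after the start of each gene, 5′ to 3′ on the strand of the gene. They lie at chr13:110394794-110395093 on the plus strand for Plk2, chr4:117133914-117134213 on the minus strand for Plk3, chr7:122159185-122159484 on the plus strand for Plk1 and chr3:40799701-40800000 on the plus strand for Plk4. The GENCODE M21 annotation starts Plk4 at 40800019, past the end of its window, so its motif positions hold for the RefSeq start only. Capitals mark matches, on either strand, to TGACGTCA (the cyclic AMP response element, CRE, bound by CREB), to its shorter core TGACG, to TTTGAA (the CHR element of mitotic genes), to CCAAT (bound by NF-Y) and to GCGGGAA (an E2F core).
Plk2: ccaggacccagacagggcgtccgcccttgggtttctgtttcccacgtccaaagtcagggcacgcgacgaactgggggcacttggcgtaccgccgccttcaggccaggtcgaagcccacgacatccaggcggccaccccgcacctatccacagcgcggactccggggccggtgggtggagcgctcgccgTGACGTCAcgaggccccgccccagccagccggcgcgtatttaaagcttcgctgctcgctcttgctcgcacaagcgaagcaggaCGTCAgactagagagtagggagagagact
Plk3: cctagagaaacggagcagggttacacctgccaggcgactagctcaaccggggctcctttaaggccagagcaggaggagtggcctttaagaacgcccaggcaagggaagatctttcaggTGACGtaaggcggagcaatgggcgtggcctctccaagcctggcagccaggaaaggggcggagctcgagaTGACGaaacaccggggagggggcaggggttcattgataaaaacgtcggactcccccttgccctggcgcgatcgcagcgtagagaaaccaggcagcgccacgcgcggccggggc
Plk1: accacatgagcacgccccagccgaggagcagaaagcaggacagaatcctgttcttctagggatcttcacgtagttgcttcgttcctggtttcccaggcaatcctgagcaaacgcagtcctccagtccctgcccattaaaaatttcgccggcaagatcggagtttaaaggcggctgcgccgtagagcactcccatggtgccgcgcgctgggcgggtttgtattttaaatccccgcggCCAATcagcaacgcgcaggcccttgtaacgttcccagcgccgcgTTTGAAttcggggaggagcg
Plk4: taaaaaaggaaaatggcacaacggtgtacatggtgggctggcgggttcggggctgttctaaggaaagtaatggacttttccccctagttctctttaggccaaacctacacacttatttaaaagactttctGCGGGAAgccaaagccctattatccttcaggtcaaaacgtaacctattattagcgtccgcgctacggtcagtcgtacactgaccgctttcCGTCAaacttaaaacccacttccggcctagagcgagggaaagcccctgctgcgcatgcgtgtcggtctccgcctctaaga

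The Plk2 promoter held a full CRE whose first base lay at -62, counted from the start of the gene as +1. The full element occurs in 588 of 32851 RefSeq promoter windows of this length, or 1.79%. The core TGACG was matched 3 times in Plk2 (the full element gives 2 of these, since it holds the core on both strands), 2 times in Plk3 and 1 time in Plk4, and 20.8% of the windows hold it. The Plk1 window held 1 CCAAT box at -14 and 1 TTTGAA at 31, which occur in 37.4% and 17.9% of windows. The Plk4 window held GCGGGAA at -120, found in 4.6% of windows. An AP-1 site (TGANTCA, in 7.81% of windows) and a CArG box (in 1.63%) were found in none of the 4. A kB site (in 8.46%) was matched in Plk4 alone, at 7. GC boxes (GGGCGG, in 35.7%) were matched 2 times in Plk2 and 1 time each in Plk3 and Plk1, overlapping no marked motif. These are matches of letters in 1 window and say nothing of binding.

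Plk2 was by far the most abundant family member and its transcripts rose with HDM. The vehicle libraries 1 to 6 held 180.1, 191.03, 191.3, 199.98, 252 and 256 CPM. The HDM libraries held 410.2, 429.5, 389.7, 400.7, 586 and 618 CPM. Every HDM library lay above every vehicle library, and within each treatment the libraries numbered 5 and 6 were the highest. The mean went from 212 ± 33.4 to 472 ± 102 CPM (SD, n = 6 each), a 2.23-fold difference (log2 fold change 1.16 ± 0.14 SE). The values rest on 4869 to 49366 reads per library. By mean CPM, Plk2 ranked 439 of the 13530 tested genes.

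Plk3, whose product responds to genotoxic, osmotic and oxidative stress, rose in a similar proportion from a far lower level. Vehicle libraries 1 to 6 held 7.03, 7.16, 6.28, 7.14, 5.44 and 7.02 CPM. The HDM libraries held 18.2, 18.5, 17.5, 15.8, 16.5 and 16.7 CPM. The lowest HDM library was more than double the highest vehicle library, and here the libraries numbered 5 and 6 did not lie apart from the others of their treatment, except that vehicle 5 was the lowest. The mean went from 6.68 ± 0.689 to 17.2 ± 1.03 CPM, a 2.56-fold difference (log2 fold change 1.36 ± 0.07 SE). The spread between HDM libraries was 6.0% of the mean for Plk3 and 21.5% for Plk2. In the GENCODE M21 annotation Plk3 overlaps Tctex1d4, on the opposite strand, by 84 bases. Tctex1d4 had 768 reads over the 12 libraries and Plk3 had 7006.

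**Figure D1:**
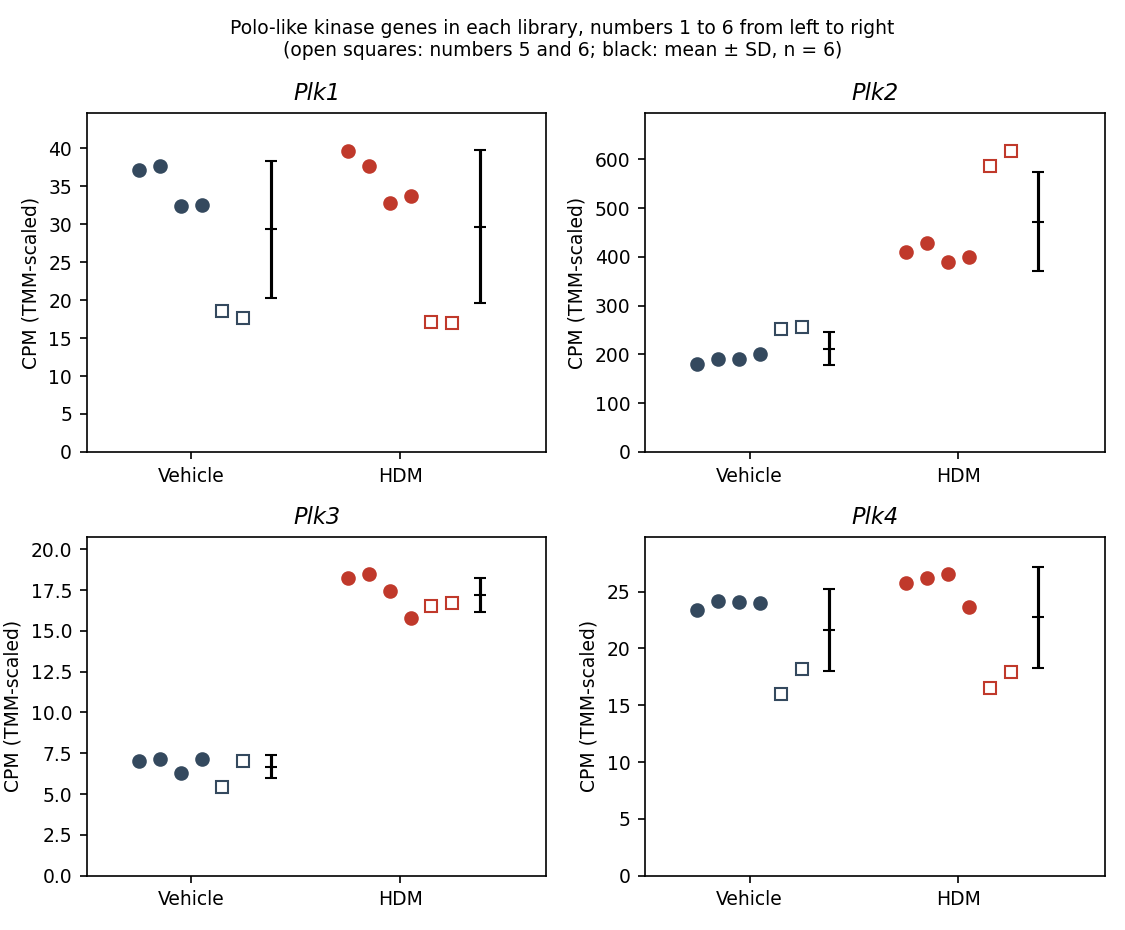
Level of each Polo-like kinase gene in CPM (vertical axes, each from 0) in the vehicle and HDM libraries, with numbers 1 to 6 from left to right, open squares for numbers 5 and 6, and the mean ± SD (n = 6) in black. Plk2 and Plk3 show no overlap between treatments, whereas Plk1 and Plk4 overlap and are lower in numbers 5 and 6 of both.

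Plk1, the mitotic kinase gene, did not separate the treatments. Its vehicle libraries 1 to 6 held 37.1, 37.7, 32.4, 32.6, 18.5 and 17.6 CPM, and its HDM libraries 39.7, 37.7, 32.8, 33.7, 17.1 and 17.04 CPM. Libraries of the same number were close to each other, and numbers 5 and 6 stood at about the same low level with and without HDM. The means were 29.3 ± 9.0 CPM with vehicle and 29.7 ± 10.1 with HDM, and the log2 fold change was 0.01 ± 0.26 SE. With the library number as a block it was 0.01 ± 0.03. The sign of the first value changed under scaling by upper quartile and by total library size.

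Plk4, the centriole kinase gene, followed Plk1 in outline with a smaller gap between the numbers. Vehicle libraries 1 to 6 held 23.4, 24.2, 24.1, 24.0, 16.0 and 18.2 CPM, and HDM libraries 25.8, 26.2, 26.5, 23.7, 16.5 and 17.9 CPM. The treatments overlapped. The means were 21.6 ± 3.60 CPM with vehicle and 22.7 ± 4.44 with HDM (log2 fold change 0.07 ± 0.14 SE, and 0.07 ± 0.04 with the block).

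In the fit over all genes, edgeR's quasi-likelihood test with Benjamini-Hochberg adjustment called 2 of the 4 members higher and 0 lower at an adjusted p under 0.05, as limma-voom and DESeq2 did, and 0 were lower at an unadjusted p under 0.05. It called 5.37% of all tested genes, 2.9% higher and 2.47% lower. Every HDM library lay above every vehicle library in the same 2 members, as in 2.32% of tested genes. The members were proposed with this contrast in view, so nothing is read from these counts. With the library number as a block the same 2 members were called higher and 0 lower, against 14.7% of all tested genes (7.9% higher and 6.81% lower). By log2 fold change Plk3 stood at 91 and Plk2 at 115 of the 13530 genes.

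Within each library number, HDM over vehicle was 1.00 to 1.27 on the log2 scale for Plk2 (mean 1.15, SD 0.11) and 1.15 to 1.6 for Plk3 (mean 1.37, SD 0.16). For Plk1 it ran from -0.12 to 0.10 and for Plk4 from -0.02 to 0.14. Numbers 1 to 4 alone gave a log2 fold change of 1.10 ± 0.04 SE for Plk2, and numbers 5 and 6 alone gave 1.25 ± 0.04. For Plk3 the values were 1.35 ± 0.07 and 1.36 ± 0.10. The difference between these sets of numbers was not tested, since the labels do not define them.

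**Figure D2:**
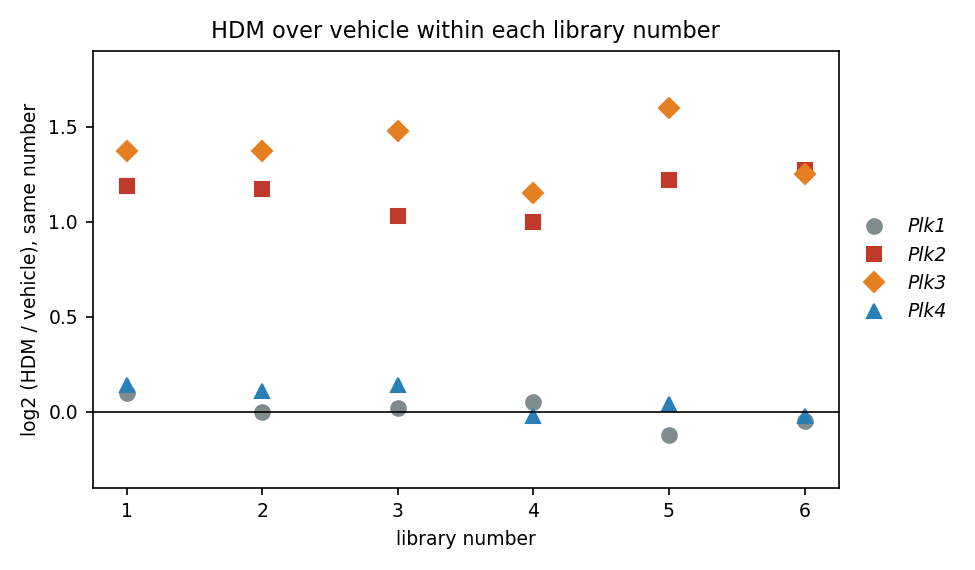
Log2 ratio of HDM to vehicle (vertical axis) for the libraries of each number (horizontal axis), 1 point per gene. Plk2 and Plk3 lie between 1.00 and 1.6 at every number and Plk1 and Plk4 between -0.12 and 0.14.

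Plk5 was hardly detected. It had 4 reads in 2 of the HDM libraries, or 0.0131 per M reads (exact 95% Poisson interval 0.00357 to 0.0336, counting error only), and 0 of 248.7 M reads with vehicle. By the limit of 3 counts used for a count of 0, the latter allows up to 0.0121 per M, and the upper bound of the exact interval, the kind given for HDM, is 0.0148 per M. It did not pass the filter. Plk-ps1, a processed pseudogene that bears the family's name, stood at 1.18 ± 0.274 CPM with vehicle and 1.08 ± 0.106 with HDM. Reads that fit both a pseudogene and a gene may have been lost or moved in counting.

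Levels can be compared between genes only per length. Divided by the union of the GENCODE exons, Plk2 stood at 47.1 ± 7.44 CPM per kb with vehicle, Plk1 at 13.3 ± 4.09, Plk4 at 3.16 ± 0.526 and Plk3 at 2.64 ± 0.272. With HDM the order was Plk2 at 105 ± 22.7, Plk1 at 13.5 ± 4.59, Plk3 at 6.79 ± 0.408 and Plk4 at 3.32 ± 0.648 CPM per kb. The ranges of Plk3 and Plk4 overlapped with vehicle (2.15 to 2.83 and 2.33 to 3.53) and did not with HDM (6.25 to 7.29 and 2.41 to 3.87). Divided by the longest annotated transcript in place of the exon union, a choice made after the data were seen, this turned round. Plk3 and Plk4 then lay apart with vehicle, at 2.66 ± 0.274 and 6.22 ± 1.04 CPM per kb, and overlapped with HDM, at 6.85 ± 0.411 and 6.54 ± 1.28. Plk2 and then Plk1 had the highest means under both lengths.

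Plk2 took most of the family's reads in every library. Its share of the reads of the 4 genes, not per length, was 78.2% ± 6.14 with vehicle and 86.6% ± 4.39 with HDM (SD, n = 6 each). Plk3 took 2.50% ± 0.361 and 3.24% ± 0.561. The shares of Plk1 (11.1% ± 4.02 and 5.80% ± 2.49) and Plk4 (8.15% ± 1.85 and 4.38% ± 1.37) were smaller with HDM, while their own mean levels lay within 1 SD of each other. The summed level of the 4 genes was 269 ± 21.0 CPM with vehicle and 542 ± 88.0 with HDM.

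Genes that act with PLK1 in mitosis were next compared between HDM and vehicle. Of 33 listed activators, docking partners and other mitotic genes, all tested, edgeR called 0 higher and 1 lower, against 2.9% and 2.47% of all tested genes, with a median log2 fold change of -0.03 against 0.00 over all tested genes. At an unadjusted p under 0.05 it gave 1 higher and 2 lower, and limma-voom and DESeq2 each called 0 higher and 1 lower. The gene called was Wee1, whose kinase holds CDK1 inactive before mitosis, at 39.1 ± 1.00 CPM with vehicle and 29.2 ± 2.11 with HDM (log2 fold change -0.42 ± 0.05 SE, adjusted p = 8.26e-05). Mki67, which encodes the proliferation marker Ki-67, was at 0.14 ± 0.24 (adjusted p = 0.977) and Top2a, the gene of the replication and mitosis topoisomerase, at 0.01 ± 0.23 (adjusted p = 1.00). With the library number as a block, 1 was called higher and 5 lower, against 7.9% and 6.81% of all tested genes. The 6 are named after their values were seen. Nedd1, which brings gamma-tubulin to centrosomes, was the higher one (log2 fold change 0.16 ± 0.03 SE, block-adjusted p = 0.00143 by edgeR). Beside Wee1 the lower ones were Fbxo5, the gene of the anaphase-promoting complex inhibitor EMI1 (-0.57 ± 0.05, adjusted p = 2.39e-07), the chromosomal passenger gene Incenp (-0.10 ± 0.02, 0.00701), the phosphatase gene Cdc25b (-0.12 ± 0.04, 0.0273) and Cdc20 (-0.13 ± 0.04, 0.0312).

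The mitotic genes shared with Plk1 the low level in numbers 5 and 6. All 4 of these libraries lay below all 8 others in 31 of the 33 genes, as in 15.2% of all tested genes, and also in Plk1 and Plk4 themselves. The median difference of mean log2 CPM, numbers 5 and 6 minus numbers 1 to 4, was -0.88 over the list, and it was -1.01 for Plk1, -0.53 for Plk4, -0.11 for Plk3 and 0.49 for Plk2. The 33 genes together stood at 1044 to 1106 CPM in numbers 5 and 6 and at 1751 to 2061 CPM in the others. Of 24 DNA replication and G1/S genes, 20 showed the same order of libraries, with a median difference of -0.55. In bulk libraries, fewer dividing cells and less RNA per dividing cell cannot be told apart.

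For HDM, the replication list had 0 members called higher and 0 lower by edgeR, against 2.9% and 2.47% of all tested genes (median log2 fold change -0.01). The block called 1 higher and 5 lower, against 7.9% and 6.81% of all tested genes. DESeq2 called 1 lower and limma-voom 0, and at an unadjusted p under 0.05 edgeR gave 0 higher and 1 lower. The list's most abundant members were Ccnd1, the gene of cyclin D1, at 466 ± 95.3 CPM with vehicle and 496 ± 96.7 with HDM (log2 fold change 0.09 ± 0.16 SE, adjusted p = 0.984, and 0.00981 with the block), and Pcna, the gene of the sliding clamp, at 474 ± 80.4 and 479 ± 70.0 CPM (0.02 ± 0.12, adjusted p = 1.00).

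**Figure D3:**
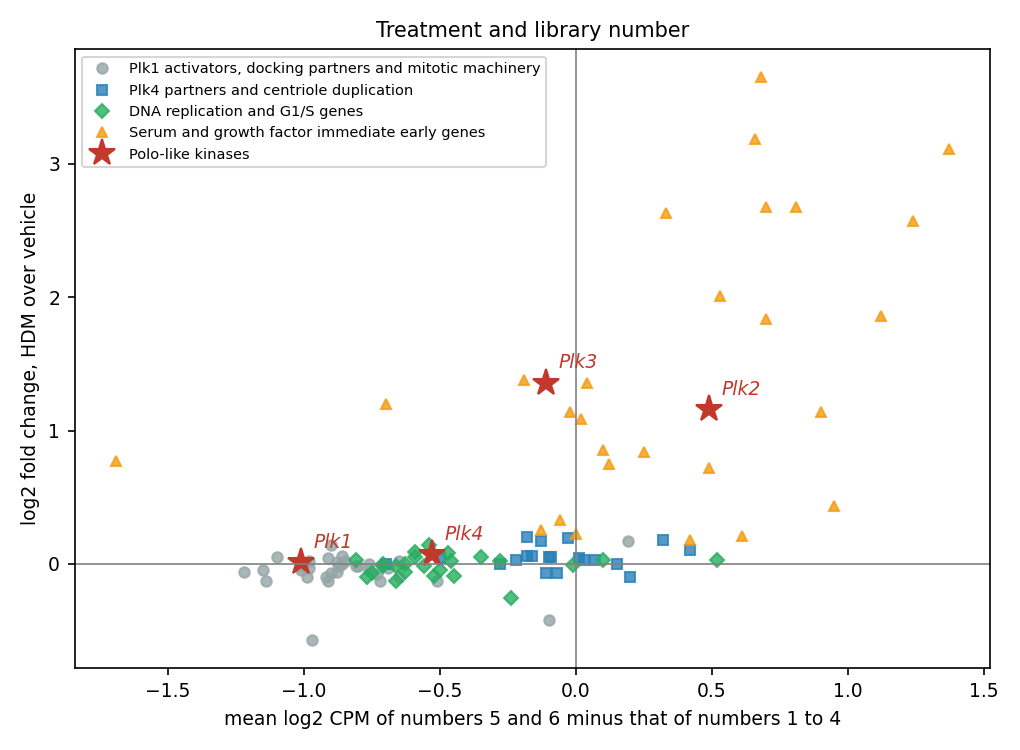
Each point is a gene, placed by the difference of its mean log2 CPM between numbers 5 and 6 and numbers 1 to 4 (horizontal axis) and by its log2 fold change for HDM over vehicle (vertical axis), with the 4 kinases as stars and 4 gene lists in other shapes. Plk1 (-1.01) and Plk4 (-0.53) lie to the left among mitotic and replication genes near 0 for HDM, and Plk2 and Plk3 lie above 1 on the HDM axis, in the range of the immediate early genes.

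PLK4 works with scaffold and cartwheel proteins at the centriole. Of 20 genes listed for centriole duplication, all tested, edgeR called 0 higher and 0 lower, against 2.9% and 2.47% of all tested genes. The median log2 fold change was 0.04, and edgeR gave 3 higher and 0 lower at an unadjusted p under 0.05. Limma-voom called 0 and DESeq2 1 higher. The block called 4 higher and 0 lower, against 7.9% and 6.81% of all tested genes. The 4, named after their values were seen, were Cenpj (log2 fold change 0.20 ± 0.05 SE with the block, edgeR adjusted p = 0.0069), Cep120 (0.19 ± 0.04, 0.00219), Ccp110 (0.18 ± 0.05, 0.0124) and Cep135 (0.19 ± 0.05, 0.0296). They encode proteins that set centriole length and assembly. The most abundant were Cep192, which recruits PLK4, at 67.2 ± 3.99 CPM with vehicle and 70.2 ± 5.81 with HDM (0.06 ± 0.06, adjusted p = 0.844), and Pcnt, the gene of pericentrin, at 47.7 ± 4.06 and 47.7 ± 6.23 (0.00 ± 0.09, adjusted p = 1.00). In this list 5 of 20 genes had numbers 5 and 6 below all others, as had 15.2% of all tested genes. Another 3 had them above all others, as had 1848 of the 13530 tested genes. The median difference between the numbers was -0.09 over the list. Stil and Sass6, the closest partners of PLK4 in building a centriole, were named after their values were seen. They differed between the numbers by -0.70 and -0.50, the lowest values of the list, near the -0.53 of Plk4. Cep192 was at -0.16 and Cep120 at 0.32.

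Among substrates and partners reported for PLK2 and PLK3, edgeR called 1 of 19 tested genes higher and 0 lower, against 2.9% and 2.47% of all tested genes. DESeq2 and limma-voom each called 1 higher and 0 lower, and edgeR gave 3 higher and 0 lower at an unadjusted p under 0.05. The gene called higher was Jun, which is also an early response gene, at 83.5 ± 6.63 CPM with vehicle and 140 ± 6.01 with HDM (log2 fold change 0.75 ± 0.05 SE, edgeR adjusted p = 6.92e-07). Npm1, the gene of nucleophosmin, was at -0.03 ± 0.03 (adjusted p = 0.882). The block called 0 lower and 3 higher, against 6.81% and 7.9% of all tested genes. Beside Jun these were Cdc25a and Cenpj, named after their values were seen (0.16 ± 0.04, edgeR adjusted p = 0.00416, and the value given above).

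Genes of the DNA damage checkpoint and of p53, which act upstream of or beside PLK2 and PLK3 in damaged cells, were called in both directions. Of 20 tested, edgeR called 3 higher and 3 lower, against 2.9% and 2.47% of all tested genes, with a median log2 fold change of -0.01. The block called 3 higher and 4 lower, against 7.9% and 6.81%, the added gene being Trp53inp1 (-0.18 ± 0.05 SE, block-adjusted p = 0.0299 by edgeR, named after its values were seen). Cdkn1a, the gene of the cell cycle inhibitor p21, was at 387 ± 18.3 CPM with vehicle and rose to 535 ± 16.9 with HDM (log2 fold change 0.47 ± 0.04 SE, adjusted p = 3.32e-06). Mdm2, which encodes the ligase that marks p53 for degradation, rose from 266 ± 9.95 to 363 ± 8.42 CPM (by 0.45 ± 0.03, adjusted p = 9.68e-07). Btg2, an antiproliferative early response gene, rose by 0.84 ± 0.14 (adjusted p = 0.0029). Gadd45a fell by 0.74 ± 0.14 on the log2 scale (adjusted p = 0.00777), and so did the phosphatase gene Ppm1d, by 0.30 ± 0.05 (adjusted p = 0.0036), and Bbc3, by 1.30 ± 0.08 (adjusted p = 3.19e-07). The last pair was named after their values were seen. Trp53 itself was at 84.2 ± 5.15 and 84.9 ± 4.10 CPM.

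The immediate early genes were the list in which most members moved as Plk2 and Plk3 did. EdgeR called 23 of 27 tested genes higher and 0 lower, against 2.9% and 2.47% of all tested genes. The median log2 fold change was 1.14. The block called 27 higher, against 7.9% of all tested genes. DESeq2, the block and limma-voom called 0 lower, and 0 were lower in edgeR at an unadjusted p under 0.05. The most abundant of those called were Dusp1, a MAP kinase phosphatase gene (2.68 ± 0.27 SE, adjusted p = 3.93e-05), Junb (0.72 ± 0.15, 0.00981), Klf6 (0.85 ± 0.05, 1.27e-07) and Zfp36 (2.63 ± 0.13, 3.53e-08). Plk2 at 1.16 and Plk3 at 1.36 lay close to the median of this list. The list was drawn up with the earlier results of these libraries known and is not independent evidence of a direction.

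**Figure D4:**
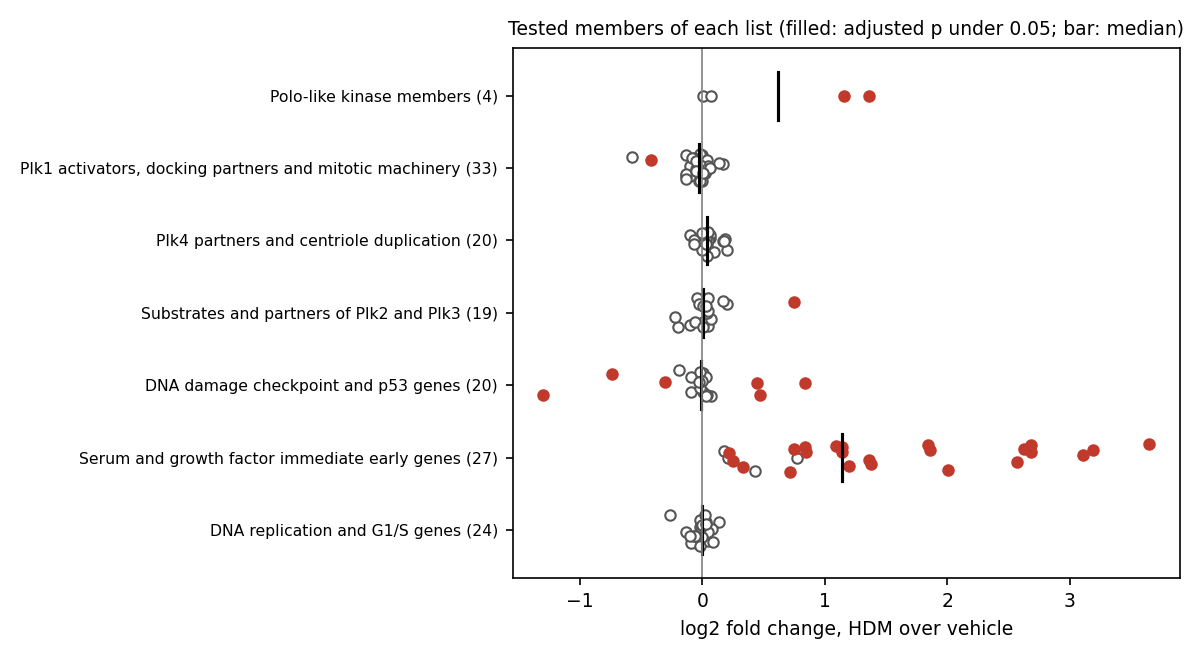
Log2 fold change for HDM over vehicle (horizontal axis) of each tested gene of the family and of 6 lists around it, with the number tested in brackets, filled points for genes called at an adjusted p under 0.05 and a bar at the median. Plk2 and Plk3 lie among the immediate early genes (median 1.14), and the mitotic, centriole and replication lists lie around 0.

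The genes with the most similar profiles over the 12 libraries were found by the root mean square difference of log2 CPM, each gene centred on its own mean. This choice uses the HDM and vehicle values themselves. The HDM changes and number differences of the genes found therefore follow from it and are a description only. For Plk1 the nearest genes were Kif11 and Kifc1, both genes of spindle motors, Spag5, Pimreg and Iqgap3, at differences of 0.0389 to 0.045. Kif11 stood at 54.6 CPM with vehicle and 53.9 with HDM, and was lower by 1.01 in numbers 5 and 6 on the log2 scale, as Plk1 was. For Plk4 the nearest were Mtmr11, Atad2, Tubb4b, Abcc4 and Tipin (0.0606 to 0.0668), with log2 fold changes for HDM of -0.01 to 0.08.

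For Plk2 the nearest profile was that of Cited2, which encodes a regulator that binds the coactivators CBP and p300, at a difference of 0.101. It went from 39.8 to 96.4 CPM with HDM and was higher by 0.43 in numbers 5 and 6, values that the choice by profile brings with it. Cd14, the gene of the lipopolysaccharide co-receptor, came next at 0.105, then Thap6, the inflammasome sensor gene Nlrp3 and Nfkbie, at 0.139 to 0.162. For Plk3 the near profiles included Myc, the gene of a growth-promoting transcription factor, at 0.137, Trib1 at 0.148, the mitochondrial carrier gene Slc25a25 at 0.149 and Ier2 at 0.179. Myc went from 10.9 to 28.6 CPM. No gene was near both Plk2 and Plk3 by this rule.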

How the data were processed

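Stranded mRNA libraries were made from column-purified, DNase-treated total RNA, per the labels' protocols. The authors deposited 1 table of unscaled read counts by gene symbol. The submitters' processing notes name featureCounts 2.0.6 with Subread, STAR 2.6.0c, cutadapt 4.5, Trim Galore 0.6.10 and FastQC 0.12.1, and 2 builds, GRCm38 and mm39, without saying which was used for what. Annotation and strand setting: not given in the sources used here.

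Groups and numbers were taken from the titles. EdgeR 4.0.16 (limma 3.58.1, R 4.3.3) was run with TMM factors, filterByExpr at its defaults and group as the only term, by the two-sided quasi-likelihood F test with Benjamini-Hochberg adjustment over 13530 genes, called under 0.05. The script was tested on simulated data. The SE of a log2 fold change is its size divided by the square root of F. CPM use the TMM factors, and profiles used log2 CPM with a prior count of 2. Alternatives were DESeq2 1.42.0, limma-voom, other scalings and filters, the replicate block, leaving out each library and subsets of numbers. Across genes, deviations from the group means correlated between same-numbered libraries at 0.367 to 0.672, over the bound of 0.1. The numbers were therefore taken to pair the libraries, from the data and not from the labels. The check did not include libraries of different numbers. It cannot tell pairing by number from a difference shared by whole sets of numbers. Pairing by number is thus an assumption of the block.

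Lengths come from GENCODE M21 (GRCm38) and promoters from RefSeq (GRCm38.p6). All 4 members matched by symbol. The members, the 6 partner lists and the rule for named genes were chosen with earlier results of these data known. Named are the members, Plk5, up to 4 called genes per list of the largest mean CPM (the 2 most abundant where fewer than 2 were called), and the 5 nearest profiles among genes averaging 1 CPM or more. Marker lists covered macrophages, granulocytes, lymphocytes, progenitors, dendritic cells, stroma and erythroid cells with megakaryocytes. The summed levels not given below were 0.311 to 1.09 CPM for dendritic cells, 2.02 to 6.76 for stroma and 97.0 to 197 for the last, mostly Pf4 (mean 156). Some genes that these rules and lists pick are not reported here, though the counts include them.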

Additional observations from a re-analysis of the deposited data

Results flagged for a closer look

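The HDM library numbered 1 held 119.71 M counted reads, and its gap to the next deepest HDM library was 0.733 of the range of the group, above the critical value of 0.625 for 6 samples. Chance sets apart about 5% of groups. Of 18 groups of values examined (levels and family shares of the 4 genes and total reads, each with HDM and with vehicle), this was the only 1 so far out. Without that library the log2 fold changes were 1.20 for Plk2, 1.34 for Plk3, -0.09 for Plk1 and 0.02 for Plk4.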

How the results depend on the processing

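Under all 21 alternatives of the fit Plk2 and Plk3 were called higher, with log2 fold changes of 1.07 to 1.25 and 1.31 to 1.39. Plk1 (-0.10 to 0.13) and Plk4 (-0.01 to 0.14) were called in none, and Plk1 was above 0 in 11 of them. The block changed no call of a member. The alternatives use the same libraries, and the members were chosen with their values known, so these calls are a description only. Over all genes the replicate block called 1069 higher and 921 lower, against 393 and 334 without it. Numbers 1 to 4 alone called 683 higher and 393 lower, numbers 5 and 6 alone 572 and 567, and DESeq2 526 and 429. Leaving out 1 library gave 303 to 403 higher and 233 to 291 lower over all genes. The list counts below are to be read beside these. In the mitotic list the block called 1 higher and 5 lower, numbers 1 to 4 alone 1 and 2, and numbers 5 and 6 alone 1 and 3. In the centriole list the counts called higher were 4 with the block, 1 with DESeq2, 2 with numbers 1 to 4, 1 with numbers 5 and 6, and 0 to 1 on leaving out 1 library (1 without vehicle 1). Among substrates of PLK2 and PLK3 they were 3 with the block, 2 with either set of numbers, and 1 to 2 on leaving out 1 library (2 without vehicle 1). Among p53 genes numbers 5 and 6 alone called 5 lower. In the replication list the block called 1 higher and 5 lower, and those called lower were 1 with DESeq2, 1 with numbers 1 to 4, 3 with numbers 5 and 6, and 0 to 1 on leaving out 1 library (1 without HDM 4 or vehicle 6). The cause was not tested.

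In numbers 5 and 6 alone the shares of family reads, HDM then vehicle, were 92.2% and 86.0% for Plk2, 2.61% and 6.12% for Plk1, 2.55% and 2.11% for Plk3, and 2.63% and 5.78% for Plk4. Per exon length, over all 6 libraries of each group, the shares were 81.0% and 70.9%, 11.0% and 20.4%, 5.36% and 3.99%, and 2.66% and 4.79% in the same order. Depth limits Plk5 and Egr3, which had too few reads to be tested.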
